A study of Mus musculus with 28 samples.

Results

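Hmgcs1, Pmvk, Idi1, Fdps, Fdft1, Sqle, Lss and Cyp51 encode 8 enzymes of cholesterol synthesis, and they are 8 of the 18194 genes measured on 28 Affymetrix arrays of mouse retroperitoneal fat. The genes were picked by name as enzymes of the pathway, with earlier results of these data known. For each gene the level comes from the brightest of its single-gene probe sets, judged by the mean of the 28 arrays, and the rest of the 21 probe sets are described beside it. Mice of the strain labelled C57BK/6J, aged 9 weeks and with no genetic alteration named, ate a control diet or one to which 0.5% of a conjugated linoleic acid (CLA), the trans-10 cis-12 isomer, had been added, a fatty acid that depletes white fat in mice. Both pads were removed on day 1, 2, 3, 4, 7, 10 or 17 of feeding, which gives 14 groups of diet and day with 2 arrays each. Each sample pools the pads of 10 mice, so no value belongs to a single animal. The labels do not say whether the arrays of a group come from separate pools, and the series record counts 140 mice, which is 10 for each of the 14 groups. Should both arrays come from 1 pool, every p-value that rests on the spread between them, which means all but those of the effect over all 7 days, reflects technical spread alone.

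Cholesterol is built from acetyl units. Hmgcs1, the cytosolic HMG-CoA synthase, makes an early intermediate, Pmvk phosphorylates mevalonate phosphate, and Idi1 isomerises the isoprene unit that Fdps joins into farnesyl diphosphate. Fdft1 then condenses farnesyl diphosphate to squalene, the first step committed to sterols. Sqle oxidises squalene, Lss closes the ring to lanosterol, and Cyp51 removes a methyl group from lanosterol. Genes of the pathway are known targets of SREBP-2, a membrane-bound transcription factor that is released when the sterol content of the endoplasmic reticulum is low. White fat makes little cholesterol itself compared with liver, and its adipocytes store much of the body's free cholesterol.

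RefSeq promoter windows (assembly GRCm38.p6), which run from 250 bases before to 50 bases after a transcription start, were found for 5 of the 8 genes in 6 windows, Pmvk having more than 1. The windows of Hmgcs1 (chr13:119690101-119690400, plus strand), Idi1 (chr13:8885356-8885655, plus strand) and Cyp51 (chr5:4104648-4104947, minus strand) are shown as examples. With the probe sets used, these genes passed the threshold on different days. Other probe sets of Hmgcs1 and Cyp51 gave courses closer to that of Idi1. No test compared the genes' courses or set motifs against them. Each is written 5′ to 3′ in the direction of transcription, with matches on either strand to 3 motifs in capitals: TCACNCCAC, a form of the sterol regulatory element bound by SREBPs, CCAAT, the NF-Y box, and GGGCGG, the GC box bound by Sp1.
Hmgcs1: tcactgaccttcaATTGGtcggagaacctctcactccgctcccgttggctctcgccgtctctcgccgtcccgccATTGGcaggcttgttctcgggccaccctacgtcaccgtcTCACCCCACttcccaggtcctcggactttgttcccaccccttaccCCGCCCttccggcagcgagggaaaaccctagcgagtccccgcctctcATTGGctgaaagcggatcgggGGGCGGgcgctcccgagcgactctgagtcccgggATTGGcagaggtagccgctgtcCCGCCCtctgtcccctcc
Idi1: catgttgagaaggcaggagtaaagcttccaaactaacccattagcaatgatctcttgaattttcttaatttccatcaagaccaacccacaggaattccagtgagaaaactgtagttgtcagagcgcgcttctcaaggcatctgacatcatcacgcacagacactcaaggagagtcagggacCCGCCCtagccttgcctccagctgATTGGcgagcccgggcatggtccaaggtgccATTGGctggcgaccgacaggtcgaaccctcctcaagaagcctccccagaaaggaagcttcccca
Cyp51: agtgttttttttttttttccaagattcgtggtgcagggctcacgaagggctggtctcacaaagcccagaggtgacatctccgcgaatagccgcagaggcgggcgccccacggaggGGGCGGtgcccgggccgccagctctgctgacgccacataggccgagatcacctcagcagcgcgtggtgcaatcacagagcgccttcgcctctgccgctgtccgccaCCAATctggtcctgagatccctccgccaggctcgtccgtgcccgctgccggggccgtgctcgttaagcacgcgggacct
The Hmgcs1 window held the sterol element once, as TCACCCCAC starting at position -137 from the start site, with 4 CCAAT and 3 GC boxes. Idi1 held 2 CCAAT boxes and 1 GC box, and Cyp51 held 1 of each. Lss held 1 CCAAT box and 2 GC boxes, and the only match in the windows of Pmvk was 1 CCAAT box. No match to the sterol element lay in the windows of Idi1, Cyp51, Lss or Pmvk, which says only that these letters are not there. Of 32851 mouse promoter windows of the same length, 1.24% held the sterol element, 37.4% CCAAT and 35.7% the GC box. The motifs do not overlap one another in these windows.

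Adipocyte markers were high in the tissue. All 8 adipocyte markers measured, Adipoq, Cidec, Lipe, Pparg, Slc2a4, Lep, Retn and Fabp4, had mean log2 levels between 8.45 and 13.81, while the 7 adrenal cortex and 6 kidney markers, from organs next to the pad, all had means under 6. Skeletal muscle markers were high and variable, with gene means up to 10.31 and an array mean of 6.68 to 10.32 on control and of 5.67 to 9.52 under CLA. Replicate arrays correlated at 0.979 to 0.995 over all genes. RNA quality values differed by day and diet. The difference between the 3′ and 5′ control probe sets of Actb was 1.50 to 2.77 on the 4 arrays of day 1 and 0.77 to 1.87 on the other 24, so that 3 of the 4 lay above the later range. On the later days it was 1.10 to 1.87 on control (median 1.48) and 0.77 to 1.44 under CLA (median 1.07). That gap was not confined to the days from 7 on, with 0.77 and 0.84 under CLA and 1.14 and 1.48 on control on day 4. The Gapdh values of the later days went the other way, with medians of 0.39 on control and 0.51 under CLA. On day 1 Gapdh read 1.31 and 1.27 under CLA and 1.33 and 0.15 on control. The array at 0.15 was control replicate 2, which also had the lowest Actb value of that day, 1.50. Whether RNA quality took part in the falls described here was not tested. The mean of 5 liver markers was 8.49 and 7.35 on the control arrays of day 17, against 4.53 to 6.13 on the other control arrays and 5.39 and 6.84 on the CLA arrays of that day.

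More transcripts of the pathway fell under CLA on day 1 and from day 7 onward than on days 2 to 4. Pmvk and Fdft1 were below control on every day, and on day 3 most of the 8 were below control, 3 of them past the threshold. The values below are differences of log2 RMA levels, CLA minus control, from limma fitted across all genes. Their standard errors (SE) rest on a spread per gene that is pooled over the 14 groups of 2 arrays. A gene therefore has the same SE on each day, which is not the spread of that day's own arrays. A gene is said to have fallen or risen where its adjusted p was under 0.05. On day 1, 5 of the 8 genes fell and none rose (of all genes, 10.8% fell and 7.96% rose). With any 1 array of the series left out, the count of day 1 was 4 to 6. The median of the 8 was -1.01 on day 1, with 0.01 over all genes. On day 2 only Pmvk fell (all genes: 5.34% fallen, 4.84% risen), and the median was 0.00. Pmvk, Fdft1 and Lss fell on day 3 (all genes: 11.0% fallen, 11.3% risen), where the median was -0.52. Pmvk and Fdft1 fell on day 4 (all genes: 11.3% fallen, 12.8% risen), where the median was -0.05.

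From day 7 more of the 8 genes passed the threshold than on day 1. At an unadjusted p under 0.05 the count was 6 on both day 1 and day 7, and no test compared day 1 with the later days. The shares of all genes at an unadjusted p under 0.05 in this fit are not given here. On day 7, 6 genes fell (all genes: 8.57% fallen, 8.74% risen), the exceptions being Hmgcs1 and Fdps, and the median was -1.07. The count was again 6 on day 10 (all genes: 10.2% fallen, 10.0% risen), with a median of -1.17. By day 17, 7 genes had fallen, all but Hmgcs1 (all genes: 8.78% fallen, 11.5% risen), and the median was -1.53. The median over all genes stayed between -0.07 and 0.01 on the 7 days. None of the 8 genes rose on any day in this limma fit. At an unadjusted p under 0.05 only 1 value was above control, that of Sqle on day 4.

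**Figure D1:**
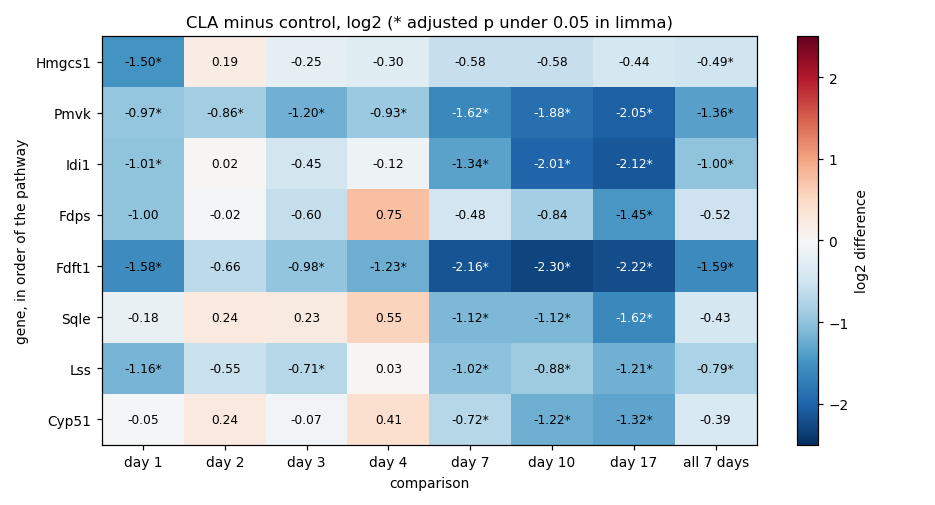
Log2 difference, CLA minus control, of the 8 enzymes in pathway order (vertical) on each day and over all 7 days (horizontal), with an asterisk where the adjusted p of limma was under 0.05. Asterisks are on 5 genes on day 1, on 1 to 3 genes on days 2 to 4 and on 6 or 7 genes from day 7, and Pmvk and Fdft1 are blue in every column.

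A difference between late and early days was tested by itself. This contrast counts day 1 among the early days and leaves out day 4. It therefore does not test days 2 to 4 against day 1 and the later days. The mean effect of days 7, 10 and 17 minus that of days 1, 2 and 3, called late minus early here, was below 0 past the threshold for 5 genes, Pmvk, Idi1, Fdft1, Sqle and Cyp51, and above 0 for none (all genes: 3.51% fallen, 6.2% risen). Sqle had the lowest value, -1.39 ± 0.19 (SE, adjusted p = 8.23e-05), from an early effect of 0.10 and a late effect of -1.29. Idi1 gave -1.34 ± 0.13 (SE, adjusted p = 2.14e-06), from -0.48 to -1.82. The same 5 genes passed the test of the diet by day interaction, which asks whether the effect differs between any days (all genes: 9.82%). Without the arrays of day 1 both counts were again 5. Without day 17 the late minus early count was 5 and the interaction count 3.

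Over all 7 days, with the day as the unit of replication, 5 genes fell and none rose (all genes: 19.8% fallen, 18.7% risen). Fdft1 fell by 1.59 ± 0.21 (SE, adjusted p = 0.000413), 3.00-fold. Pmvk fell by 1.36 ± 0.16 (SE, adjusted p = 0.000216), Idi1 by 1.00 ± 0.27 (SE, adjusted p = 0.0178) and Lss by 0.79 ± 0.14 (SE, adjusted p = 0.00217). Hmgcs1 fell by 0.49 ± 0.17 (SE, adjusted p = 0.045), a call that was lost when any of days 3, 4, 7, 10 or 17 was left out. It was also lost without replicate 2 of all groups (-0.36) and without certain single arrays, for instance replicate 1 of CLA on day 1 (-0.59). Idi1 lost its call without day 10 (-0.84, adjusted p = 0.0507). Fdps (-0.52, adjusted p = 0.108), Sqle (-0.43, adjusted p = 0.251) and Cyp51 (-0.39, adjusted p = 0.213) did not pass, though Fdps and Cyp51 did with the 28 arrays as the unit (adjusted p = 0.0289 and 0.0402) and with a replicate block in that fit (0.0252 and 0.0263). Without day 1 the count was again 5. The median of the 8 over all days was -0.65, with -0.03 over all genes.

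**Figure D2:**
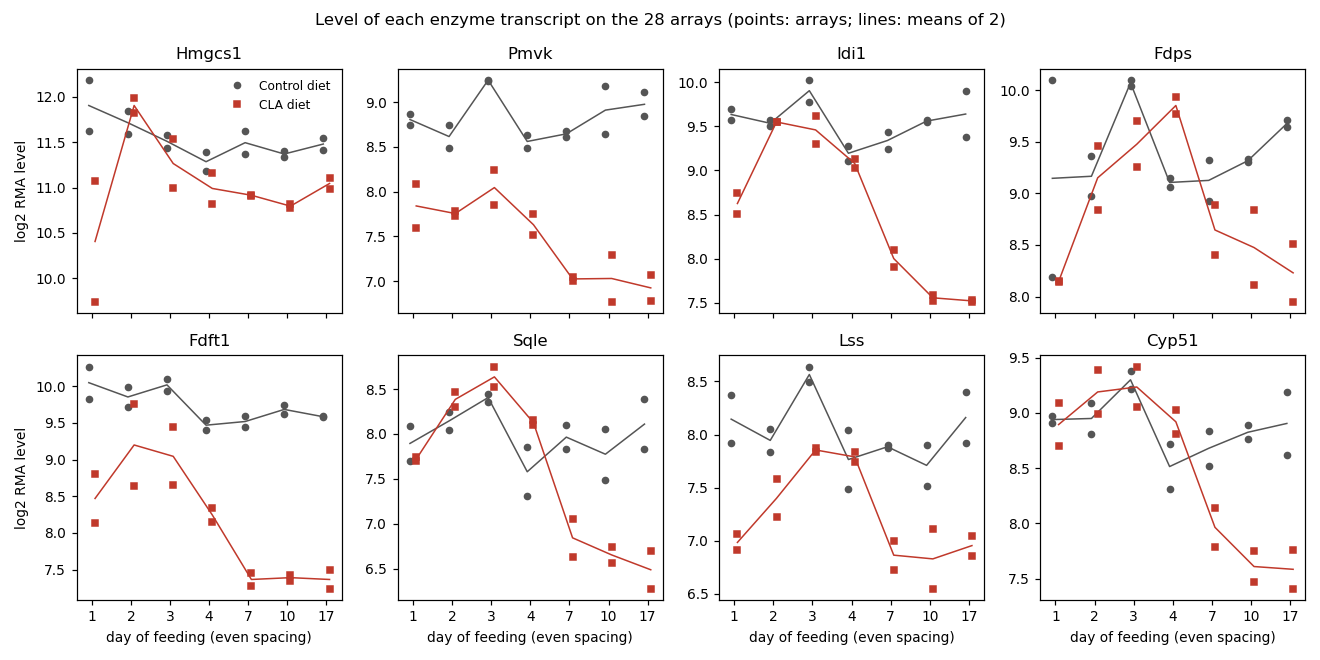
Log2 RMA level (vertical) of each of the 8 enzyme transcripts by day of feeding (horizontal, evenly spaced), with 1 point per array, grey circles for control and red squares for CLA, and lines through the means of 2 arrays. On days 7, 10 and 17 both CLA points lie below both control points in all 8 panels, and the Pmvk points of the diets are apart on every day.

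The arrays themselves show the same course. On each of days 7, 10 and 17, both CLA arrays lay below both control arrays for all 8 genes, where 53.3%, 56.6% and 63.5% of all genes had arrays of the diets that did not overlap in either direction. On day 1 this held for 6 of 8 (44.9% of all genes), and on day 2 for 3, of which 2 were lower under CLA (42.5%). On day 3 it held for 6, with 5 lower under CLA (57.7%). Day 4 had 6 such genes, 3 of them lower and 3 higher under CLA (59.8%). When the 14 groups were ordered by mean level, the 3 lowest were the CLA groups of days 7, 10 and 17 for Pmvk, Idi1, Fdft1, Sqle, Lss and Cyp51. For Hmgcs1 and Fdps the lowest group was CLA on day 1. Of the 13 pairs of neighbours in each order, 9 to 11 had overlapping arrays, and those places do not differ beyond their spread. The pairs that did not overlap included those with a gap of 0.86 for Fdft1 (CLA on day 4 to CLA on day 10), 0.73 for Sqle (control on day 4 to CLA on day 7), 0.63 for Idi1 (CLA on day 1 to CLA on day 7) and 0.60 for Pmvk (after CLA on day 4).

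Among the enzymes up to farnesyl diphosphate, Hmgcs1 fell on day 1 alone with the probe set used and the fit of 14 groups. Its level on day 1 was 12.19 and 11.62 on the control arrays and 11.07 and 9.74 on the CLA arrays. The groups did not overlap, though the CLA arrays were far from each other. The difference was -1.50 ± 0.29 (SE, adjusted p = 0.000889), 2.83-fold lower. On day 2 the CLA arrays were at 11.99 and 11.82, beside 11.84 and 11.59 on control (difference 0.19, adjusted p = 0.84). From day 7 the differences were -0.58, -0.58 and -0.44, with adjusted p of 0.211, 0.188 and 0.337. Late minus early was -0.01 (adjusted p = 0.983) and the interaction did not pass (adjusted p = 0.153).

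Of the 4 other Hmgcs1 probe sets, 3 gave larger late differences. The brightest of them, 1433445_x_at and 1433444_at, read -1.06 and -1.17 on day 10 and -0.73 and -0.81 over all days. A dimmer set, 1433446_at with a mean level of 9.16, read -1.81 on day 1, -1.56 on day 3 and -1.14, -1.33 and -1.37 on days 7, 10 and 17. Taken as the gene's value, for it was the most variable set, this probe set passed on days 3, 7, 10 and 17 (adjusted p from 0.00512 to 0.0455). The dim set 1441536_at, at a mean level of 3.50, gave smaller ones and varied between -0.46 and 0.21. How far Hmgcs1 fell after day 1 thus depends on the probe set, while 4 of its 5 sets read between -1.81 and -1.45 on day 1. Whether a day passed also depends on the pooling of the spread. With the probe set used and each day fitted alone, limma gave adjusted p of 0.0492, 0.046 and 0.0458 on days 7, 10 and 17. Day 1 did not pass in that fit (adjusted p = 0.173).

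Pmvk was the only one of the 8 whose diets did not overlap over the whole series, a separation not counted here over all genes. Its 14 control arrays lay between 8.49 and 9.25 with a median of 8.74, and its 14 CLA arrays between 6.77 and 8.24 with a median of 7.55, so that no CLA array reached a control array of any day. It fell on all 7 days, with differences of -0.97, -0.86, -1.20 and -0.93 on days 1 to 4 and of -1.62, -1.88 and -2.05 on days 7, 10 and 17 (SE 0.21 on each). The last is a 4.14-fold lower level, with CLA arrays at 7.07 and 6.78 and control arrays at 9.11 and 8.84 (adjusted p = 9.31e-07). Late minus early was -0.84 ± 0.17 (SE, adjusted p = 0.00306). The calls of days 1 and 2 were lost when certain arrays were left out, with values of -0.72 without replicate 1 of CLA on day 1, and -0.84 and -0.74 without replicate 2 of CLA or of control on day 2. Only 1 probe set measures Pmvk.

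Idi1 fell on day 1 and again from day 7. On day 1 its control arrays read 9.57 and 9.70 and its CLA arrays 8.74 and 8.51, a fall of 1.01 ± 0.16 (SE, adjusted p = 0.000157). By day 2 the CLA arrays were back at 9.55 and 9.55, within the control values of 9.57 and 9.50. They read 9.62 and 9.30 on day 3, below control at 10.03 and 9.78, and the difference of -0.45 missed the threshold (adjusted p = 0.0548). On day 4 CLA read 9.13 and 9.03 and control 9.28 and 9.11, which overlap.

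The late fall of Idi1 was present on day 7, when CLA read 8.10 and 7.90 against control at 9.44 and 9.24. On day 10 CLA was at 7.52 and 7.59 and control at 9.57 and 9.55, a difference of -2.01 ± 0.16 (SE, adjusted p = 5.71e-08). The values of day 17, 7.51 and 7.53 under CLA and 9.90 and 9.38 on control, gave -2.12 ± 0.16 (SE, adjusted p = 2.93e-08), 4.35-fold lower. The CLA arrays of days 10 and 17 span only 7.51 to 7.59. The interaction had the lowest adjusted p of the 8 genes (1.03e-05), and the other Idi1 probe set, 1423804_a_at, moved alike, with -1.29 on day 1, 0.06 on day 2 and -2.06 on day 17.

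Fdps, whose product farnesyl diphosphate also feeds protein prenylation, dolichol and ubiquinone, had the largest standard error and passed on day 17 alone. On day 1 its control arrays were 8.19 and 10.10 and its CLA arrays 8.15 and 8.14. The difference of -1.0 ± 0.40 (SE, adjusted p = 0.0941) therefore rests on 1 array. Without control replicate 1 it was -1.96 (adjusted p = 0.000254), and without control replicate 2 it was -0.05 (adjusted p = 0.954). The control array at 8.19 is the one of that pair with the larger 3′ to 5′ difference of Actb, 2.77 against 1.50, and the CLA arrays had 2.72 and 2.28. Whether RNA quality took part in the value was not tested.

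On day 4 the Fdps arrays were higher under CLA, 9.93 and 9.77 against 9.06 and 9.15, but the difference of 0.75 did not pass (adjusted p = 0.22). On day 17 the gene fell, from 9.71 and 9.64 on control to 7.95 and 8.51 on CLA (-1.45 ± 0.40 SE, adjusted p = 0.0132). This call was lost without replicate 1 of CLA (-1.17) and without either control array (-1.41 and -1.48). Late minus early was -0.39 (adjusted p = 0.512). Its other probe set, at a mean level of 2.61, stayed between -0.10 and 0.22.

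Of the enzymes committed to sterols, Fdft1, squalene synthase, had the largest differences. Control arrays lay between 9.40 and 10.27 on all days. On day 1 the control arrays of 10.27 and 9.83 stood against 8.80 and 8.14 under CLA, a fall of 1.58 ± 0.29 (SE, adjusted p = 0.000593). The CLA arrays of day 2 disagreed, at 9.76 and 8.64, beside control at 9.99 and 9.72, and the difference of -0.66 did not pass (adjusted p = 0.198). On day 3 the fall of 0.98 (adjusted p = 0.0187) also came from CLA arrays far apart, 9.44 and 8.65, and 3 of the 4 arrays of that day could each be left out to lose the call (-0.58 without CLA replicate 2).

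From day 4 the Fdft1 arrays were close together and low. CLA read 8.34 and 8.15 on day 4, 7.46 and 7.27 on day 7, 7.43 and 7.35 on day 10 and 7.49 and 7.24 on day 17. The fall on day 10, from control arrays at 9.75 and 9.62, was 2.30 ± 0.29 (SE, adjusted p = 1.12e-05), which is 4.91-fold and larger than that of any other of the 8 genes on any day. Late minus early was -1.15 ± 0.24 (SE, adjusted p = 0.00341). A further bright probe set, 1448130_at, read -1.82 on day 1, -1.49 on day 3 and -2.27 on day 10. The remaining Fdft1 sets, with mean levels of 4.05 and 3.92, stayed between -0.33 and 0.21.

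Sqle, the squalene epoxidase, did not pass on day 1. Its control arrays then read 7.70 and 8.09 and its CLA arrays 7.70 and 7.74 (difference -0.18, adjusted p = 0.687). On days 2, 3 and 4 the differences were 0.24, 0.23 and 0.55, with CLA at 8.10 and 8.15 on day 4 above control at 7.85 and 7.31 (adjusted p = 0.104). The direction then turned. Sqle fell by 1.12 on day 7, with CLA at 7.06 and 6.63 against 8.10 and 7.83, and by 1.62 ± 0.23 on day 17 (SE, adjusted p = 3.98e-05), 3.07-fold, with CLA at 6.70 and 6.28 against 8.39 and 7.83. Its interaction passed (adjusted p = 0.000482).

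With the probe set used, Cyp51, the lanosterol demethylase, did not pass before day 7 either. On day 1 control was at 8.97 and 8.91 and CLA at 9.09 and 8.70 (difference -0.05, adjusted p = 0.934). Day 4 had CLA arrays at 9.03 and 8.81 and control arrays at 8.72 and 8.31, which did not overlap, with a difference of 0.41 that missed the threshold (adjusted p = 0.236). It fell by 0.72 on day 7 (adjusted p = 0.0312), a call lost without CLA replicate 2 (-0.54) or control replicate 1 (-0.56). The differences were -1.22 on day 10 and -1.32 ± 0.22 on day 17 (SE, adjusted p = 0.00023), the latter from 9.19 and 8.62 on control to 7.76 and 7.41. Late minus early was -1.13 ± 0.18 (SE, adjusted p = 0.000418). The Cyp51 probe set 1422533_at, at a mean level of 6.98 against 8.68 for the one used, read -0.84 on day 1, -0.12 on day 4 and -1.76 on day 10. With it the gene fell over all days (-0.86, adjusted p = 0.0179). The dim set 1422534_at, at 4.38, read -0.77 on day 1 and -0.37 on day 4, and ranged from -1.05 to -0.18. The flat day 1 and the higher day 4 thus rest on the probe set used.

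Lss, the lanosterol synthase, fell on days 1, 3, 7, 10 and 17. On day 1 its control arrays were at 7.92 and 8.37 and its CLA arrays at 7.06 and 6.91, a difference of -1.16 ± 0.22 (SE, adjusted p = 0.000912). On day 4 CLA read 7.84 and 7.74, inside the control values of 8.04 and 7.49 (difference 0.03, adjusted p = 0.966). On day 17 it fell by 1.21 ± 0.22 (SE, adjusted p = 0.000539), from 8.40 and 7.92 to 7.05 and 6.86. Leaving out any 1 of the 4 arrays of day 3 lost that day's call (-0.79 to -0.64), and day 10 was lost without CLA replicate 1 (-0.60) or control replicate 2 (-0.69). The early and late effects, -0.81 and -1.04, did not differ past the threshold (adjusted p = 0.478).

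The Lss probe set 1426913_at, at a mean level of 6.30 against 7.63 for the one used, read lower on every day. It gave -1.63, -1.25, -1.29 and -1.04 on days 1 to 4 and -2.09, -2.18 and -1.88 on days 7, 10 and 17. With it, Lss fell on day 4 as well (adjusted p = 0.0307), which turns the sign of that day. The dim set 1420014_at, at 4.19, ranged from -0.63 to 0.09.

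**Figure D3:**
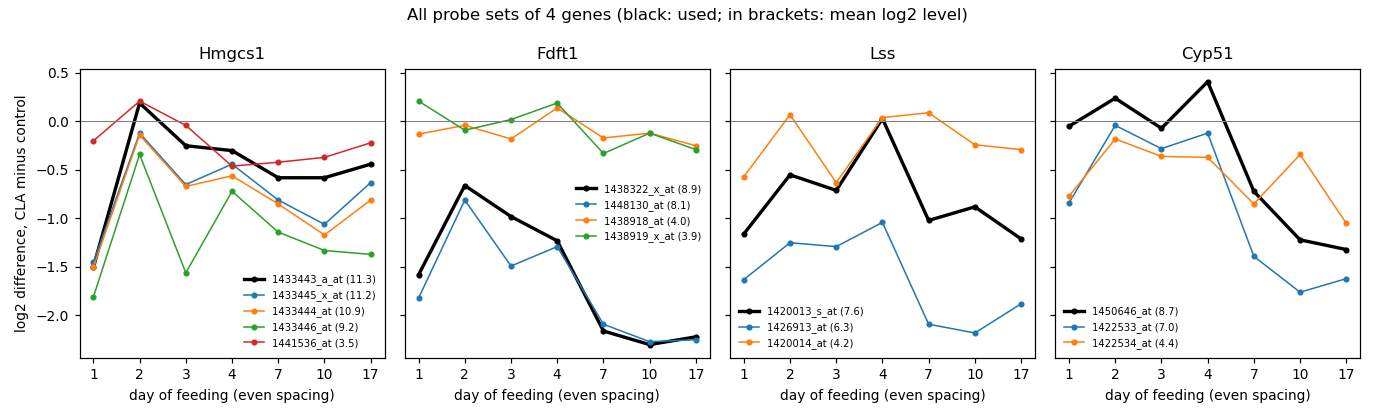
Log2 difference, CLA minus control (vertical), by day of feeding (horizontal, evenly spaced) for every probe set of Hmgcs1, Fdft1, Lss and Cyp51, with the set used in black and mean log2 levels in brackets. The second Lss set lies below the one used on all 7 days, and on day 1 all Hmgcs1 sets but the dim 1441536_at read between -1.81 and -1.45.

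On the control diet none of the 8 genes passed the F test over the 7 control groups (all genes: 0.115%). Their adjusted p lay between 0.637 and 0.896, though 4 of the 8 had an unadjusted p under 0.05. The share of all genes at that unadjusted level was not counted here, so the 4 cannot be set against it. Day 3 had the highest control mean for Pmvk, Idi1, Fdps, Sqle, Lss and Cyp51. The members' levels rose and fell together across arrays: over the 28 pairs of genes the Pearson r across 28 arrays had a median of 0.702 and ran from 0.346 (Hmgcs1 and Fdps) to 0.947 (Sqle and Cyp51). Within the 14 control arrays the median was 0.603, with a range of -0.449 to 0.941. These are descriptions of arrays that share diets, days and any differences in cell makeup.

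The genes whose levels followed the mean of the 8 most closely over the 28 arrays, each centred on its own mean, were Tlcd2 (Pearson r 0.931), Pde7a (0.928), Paqr9 (0.927), Oxtr (0.916), the oxytocin receptor, and Sc5d (0.904). Of these only Sc5d, a sterol desaturase, makes cholesterol. The 8 genes' own r with that mean, to which each contributes, ran from 0.664 for Hmgcs1 to 0.986 for Idi1.

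Of 11 other genes of cholesterol synthesis measured, 6 fell over all 7 days and 1 rose, with a median of -0.65, which was the median of the 8 as well (all genes: 19.8% fallen, 18.7% risen). Tm7sf2, a sterol reductase, fell by 1.28 ± 0.13 (SE, adjusted p = 8.72e-05). Sc5d fell by 1.21 ± 0.15 (SE, adjusted p = 0.000311), and Nsdhl, which acts in removing the methyl groups at carbon 4, by 1.21 ± 0.13 (SE, adjusted p = 0.000159). Mvd, the decarboxylase between Pmvk and Idi1, fell by 0.79 ± 0.15 (SE, adjusted p = 0.00318). The gene that rose, named here after its value was seen, was Lbr, by 0.74 ± 0.09 (SE, adjusted p = 0.000293). It encodes both a sterol reductase and a receptor of the nuclear lamina, and it catalyses the same reduction as Tm7sf2.

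By day, 5, 2, 4, 4, 3, 7 and 6 of these 11 genes fell on days 1, 2, 3, 4, 7, 10 and 17, and 2 rose on day 1, 1 on day 3 and 2 on day 4, beside the shares of all genes given for each day. Their medians on the 7 days were -0.77, -0.13, -0.62, -0.09, -0.72, -0.90 and -0.92. Late minus early passed for 1 of them, Hsd17b7, named for that reason (-1.06 ± 0.26 SE, adjusted p = 0.0112). Tm7sf2, with -0.80 to -1.85 on every day, had a late minus early of 0.10 (adjusted p = 0.828).

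Among 13 genes of sterol sensing and SREBP regulation, 4 fell and 2 rose over all days, with a median of -0.08 (all genes: 19.8% fallen, 18.7% risen). Srebf1, which encodes SREBP-1, the form that chiefly drives fatty acid synthesis, fell by 1.77 ± 0.12 (SE, adjusted p = 1.48e-05), with differences between -2.17 and -1.19 on every day. Srebf2, which encodes SREBP-2, did not pass over all days (0.17 ± 0.11 SE, adjusted p = 0.288). It had differences of 0.44, 0.51, 0.34 and 0.43 on days 1 to 4 and of -0.09, -0.30 and -0.15 on days 7, 10 and 17, so that late minus early was -0.61 ± 0.13 (SE, adjusted p = 0.00546). With its other probe set, the more variable one, Srebf2 rose over all days (0.72, adjusted p = 0.0475). Insig1, itself an SREBP target and a brake on SREBP release, was at -0.32 (adjusted p = 0.0998). It passed without day 4 (-0.42, adjusted p = 0.0429) and without any of 5 single arrays (for instance -0.45, adjusted p = 0.0142, without replicate 1 of control on day 4), and the replicates differed, with -0.72 without replicate 1 (adjusted p = 0.0466) and 0.08 without replicate 2 (adjusted p = 0.838). Insig2 fell by 0.66 ± 0.07 (SE, adjusted p = 0.000172). Npc1, which carries cholesterol out of lysosomes, rose by 1.28 ± 0.20 (SE, adjusted p = 0.00116), and Mbtps2, a protease that releases SREBPs, rose by 0.49 ± 0.11 (SE, adjusted p = 0.00759).

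Branches that share the precursors were measured as well. Of 8 genes that lead to dolichol, ubiquinone or prenylated proteins, 4 fell and 1 rose over all days (all genes: 19.8% fallen, 18.7% risen). Their median was -0.17. Coq2 of ubiquinone synthesis fell by 0.76 ± 0.07 (SE, adjusted p = 4.82e-05) and Pdss2 by 0.55 ± 0.07 (SE, adjusted p = 0.000302). The other probe sets of Pdss2 read only -0.17 to 0.05 over all days. Fnta, a subunit of protein prenyltransferases, fell by 0.47 ± 0.05 (SE, adjusted p = 0.000158), and Nus1, of dolichol synthesis, rose by 0.66 ± 0.10 (SE, adjusted p = 0.000738). None of the 8 had a late minus early past the threshold in limma, with 2 at an unadjusted p under 0.05, a level not counted here over all genes. Ggps1 is counted in this list and in that of cholesterol synthesis.

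Genes of sterol efflux and storage included several with higher differences late than early. Of 7 measured, late minus early was above 0 past the threshold for 4, which are Abca1, Abcg1, Apoe and Cyp27a1. It was below 0 for 2, Scarb1 and Ch25h (all genes: 3.51% fallen, 6.2% risen). These genes are named with their values known. The exporter Abcg1 rose over all 7 days by 1.10 ± 0.36 (SE, adjusted p = 0.0374), with differences of -0.86 on day 1 (adjusted p = 0.214) and 2.49 on day 10. That call was lost without any of days 3, 4, 7, 10 or 17 (0.87 to 1.15, adjusted p from 0.0635 to 0.0987) and without replicate 1 of control on day 1 (1.01), replicate 2 of CLA on day 1 (1.06) or replicate 2 of CLA on day 2 (1.01). On day 1 Abcg1 read -1.47 (adjusted p = 0.0465) without control replicate 1 and -0.24 (adjusted p = 0.825) without control replicate 2. Nr1h3, the sterol receptor LXR alpha, fell by 0.60 ± 0.14 (SE, adjusted p = 0.00954). Those were the only 2 of the 7 that passed over all days (all genes: 19.8% fallen, 18.7% risen), and the median of the 7 was -0.41.

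**Figure D4:**
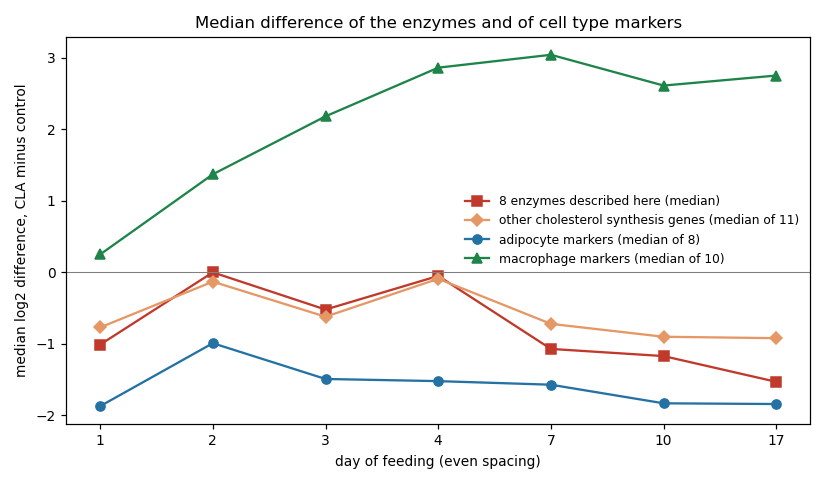
Median log2 difference, CLA minus control (vertical), by day of feeding (horizontal, evenly spaced) for the 8 enzymes, 11 other genes of cholesterol synthesis, 8 adipocyte markers and 10 macrophage markers. The enzymes are near 0 on days 2 and 4, where the adipocyte markers are at -0.99 and -1.52 and the macrophage markers at 1.37 and 2.86.

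Markers of cell types moved with the diet as well. The 8 adipocyte markers fell over all days, with a median of -1.53 (all genes: 19.8% fallen, 18.7% risen). By day, 7, 3, 7, 6, 6, 7 and 7 of them fell on days 1, 2, 3, 4, 7, 10 and 17. Their mean level ran from 11.09 to 11.98 on control arrays and from 9.78 to 10.84 on CLA arrays. On day 4 their median was -1.52 while that of the 8 enzymes was -0.05, and on day 17 the values were -1.84 and -1.53. Late minus early of the adipocyte markers had a median of -0.18, and 1 of 8 passed, against -0.98 and 5 of 8 for the enzymes. In pooled tissue, fewer cells of a type and less RNA per cell cannot be told apart.

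All 10 macrophage markers rose over all days. Their median went from 0.25 on day 1 to 2.18 on day 3 and 3.04 on day 7, and their mean level was 7.52 to 8.84 on control and 7.77 to 10.70 under CLA. On day 1, when 5 of the 8 enzymes fell, 3 of the 10 macrophage markers rose. Of 6 endothelial markers 4 fell over all days (median -0.94), as did 2 of 6 skeletal muscle markers (median -0.60), beside 19.8% of all genes. The 7 adrenal markers had a list mean of 3.70 to 4.43 across arrays. Over all days 1 of them rose and none fell (all genes: 19.8% fallen, 18.7% risen). It was Star, the brightest of them at a mean level of 5.97 (1.18 ± 0.29 SE, adjusted p = 0.0117), named after its value was seen. Of 6 kidney markers none rose or fell. On day 17, 3 of 5 liver markers fell (median -1.87), the day on which the control arrays were high in them, and the enzymes are abundant in liver. Without control replicate 1 of day 17, the array highest in liver markers, 6 of the 8 enzymes fell on that day, with the remaining control array still high at 7.35. The part that changes of cell makeup, carry-over of liver or RNA quality had in the enzymes' values was not tested.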

How the data were processed

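The deposited values are log2 expression values per probe set, made by the authors with RMA (background correction, quantile normalisation and probe summary), per the submitters' processing notes, which give no version. They were used as deposited, with no filter. Of 45101 probe sets, 34958 name 1 gene, and 18194 genes were tested. The gene lists, like the enzymes, were chosen with earlier results of these data known. Names come from GEO's platform annotation and RefSeq (GRCm38.p6). From each list, up to 4 genes that passed over all 7 days with the largest effect are named, and always Srebf1, Srebf2 and Insig1. Some listed genes are not analysed here.

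limma 3.58.1 in R 4.3.3 fitted the 14 groups on 28 arrays (14 residual degrees of freedom), with two-sided tests adjusted by Benjamini-Hochberg over all genes and a threshold of 0.05. The effect over all 7 days was fitted to the 14 group means with day as a block (6 residual degrees of freedom). The model was tested on simulated data. Promoters were searched in Python 3.11.15. The number of arrays limits the precision. Replicate differences of the diets correlated at 0.098 to 0.566, over 0.1 on 6 of 7 days. The labels name no pairing and 1 day missed 0.1, so the fits take no pairs, and fits with a replicate block are given as alternatives.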

Additional observations from a re-analysis of the deposited data

Results flagged for a closer look

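The effect of CLA differed between days, by the interaction test of limma, for 5 of the 8 enzymes and for Abcg1. Idi1 had the lowest adjusted p, 1.03e-05, with differences of 0.02 on day 2 and -2.12 on day 17. Sqle (adjusted p = 0.000482) went from 0.55 on day 4 to -1.62 on day 17, and Cyp51 (adjusted p = 0.00213) from 0.41 to -1.32 over the same days. The other Cyp51 probe sets read -0.12 and -0.37 on day 4. Pmvk (adjusted p = 0.0262) was lower under CLA on all days, with -0.86 on day 2 and -2.05 on day 17, and Fdft1 (adjusted p = 0.033) went from -0.66 on day 2 to -2.30 on day 10. Abcg1 (adjusted p = 0.0132) turned from -0.86 on day 1 to 2.49 on day 10. Groups of 2 arrays are too small for a test of outlying arrays.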

How the results depend on the processing

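Each result was recomputed under 20 other settings, of which 3 were chosen after seeing the data (a replicate block within each day, and late minus early and the interaction without the arrays of day 1 or of day 17), and with arrays or replicates left out in 30 ways. Of the 20 counts of enzymes risen, fallen or changed, 5 moved past 1.5 times in the other settings. Over all 7 days, 3 enzymes fell without day 10 in place of 5, and the interaction passed for 3 without the arrays of day 17. On day 1, 0 fell when the day was fitted alone with 4 arrays (5 at an unadjusted p under 0.05, and 5 in the fit of 14 groups, which pools the spread). On day 2, where 1 fell, the count was 2 with the most variable probe set, 3 with the mean of the probe sets, 3 without the shared _s_at and _x_at sets, 3 with the replicate block within each day and 0 with the day alone (2 at an unadjusted p under 0.05). On day 4, with the probe sets used, 1 enzyme rose with the replicate block (Cyp51, 0.41). There were 2 with the replicate block within each day (Cyp51 and Sqle) and 1 with the day alone (Fdps, 0.75). The replicate block also let Idi1 pass as lower on day 3 (adjusted p = 0.0244), and the block within each day Idi1 on day 3 (0.0308), Hmgcs1 on days 7 and 10 (0.0487 and 0.0454), Fdft1 and Lss on day 2 (0.0331 and 0.0379) and Fdps on day 1 (0.0474). Lss on day 4 turned to -1.04 with the most variable probe set and to -1.04 without _s_at and _x_at sets, both of which replace its probe set. With arrays left out, the count fallen ran from 4 to 6 on day 1, 0 to 2 on day 2, 1 to 4 on day 3, 2 to 2 on day 4, 5 to 7 on days 7 and 10, 6 to 7 on day 17, 4 to 5 over all days and 5 to 6 for late minus early. The interaction count ran from 3 to 6 and the count risen on day 4 from 0 to 1. Over all genes, day 1 alone called 309 fallen and 282 risen (1910 and 1381 at an unadjusted p under 0.05). Day 2 alone called 0 and 0 (1406 and 1006 at an unadjusted p under 0.05). The replicate block within each day called 1560 and 1477 on day 2. For late minus early it called 1176 and 1870, and for the interaction 3254. Without the arrays of day 1, 560 genes passed the interaction and 350 and 612 late minus early, which gave 328 and 625 without day 17. Control by day gave 11 genes without dim ones and 36 with the replicate block. The call of Hmgcs1 over all days was also lost after a second quantile normalisation (-0.44) and after centring array medians (-0.48). Under either scaling the median of all genes moved by under 0.1. The cause of these changes was not tested beyond what each setting alters.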
